A study of Rattus norvegicus with 9 samples.

Results

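The genes described here encode the digestive enzymes, membrane proteins and proton pump of the lysosome, measured by RNA-seq in rat vascular smooth muscle cells. They were taken by symbol from the 32623 genes of the deposited table: each cathepsin named Cts plus 1 letter, each proton pump gene whose symbol begins with Atp6v0 or Atp6v1, and 26 listed symbols for other hydrolases, lipid carriers, membrane proteins and the transcription factor TFEB. The rule used no measured value and found 65 genes. Sgsh, one of the listed symbols, was not analysed here. Of the 65 genes, 51 reached 1 FPKM (fragments scaled to exonic length and library size) in 3 or more of the 9 libraries and were tested, among 11197 genes that did so.

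The study asked how PTUPB, a single molecule that inhibits both cyclooxygenase-2 and soluble epoxide hydrolase, acts on aortic smooth muscle cells that have been driven out of their contractile state by platelet-derived growth factor BB (PDGF-BB). There were 3 libraries in each of 3 groups. The PDGF-BB+PTUPB cells had PTUPB at 0.5 µM for 2 h and then PDGF-BB for 24 h, the PDGF-BB cells had PDGF-BB for 24 h, and the Control cells had the DMSO vehicle. The PDGF-BB dose is 10 ng/mL in the sample labels and 20 ng/mL in the series design. All cells were primary rat aortic cells of passages 4 to 8, raised in 20% serum, held without serum for 12 h and then treated in medium with 2% serum. Whether libraries of 1 group came from separate animals or cultures is not stated in the labels, so the p-values reflect only how far these libraries differ, possibly for technical reasons. No group had PTUPB without PDGF-BB.

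Lysosomes break down material delivered by endocytosis and autophagy. Their hydrolases need an acidic lumen, which the V-ATPase makes by coupling ATP hydrolysis in its cytosolic V1 sector to proton transport through its membrane-bound V0 sector. Many of these genes are known targets of TFEB and its relatives, basic helix-loop-helix factors that bind E-boxes and whose activity is set largely by phosphorylation and movement into the nucleus. In the vessel wall, smooth muscle lysosomes clear lipoprotein cholesterol and secreted cathepsins cut elastin and collagen.

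Counts summed to between 12729185 and 16911051 per library, and 3 counts were worth 0.177 to 0.236 CPM. Libraries differed in how their values varied with exonic length. Spearman's rho between a gene's length and its deviation from the rest of its group was lowest in Control replicate 2 and PDGF-BB replicate 3. It was -0.389 and -0.381 there, against -0.128 to 0.35 in the other 7. Control replicate 1 (0.348) and PDGF-BB replicate 2 (0.35) were nearly as far from 0 the other way. A low rho in 1 library tends to raise that of its group, so rho alone does not single out Control replicate 2 and PDGF-BB replicate 3. The members had a median exonic length of 2022 bases and all tested genes one of 2336 bases, so counts of calls are also given without these 2 libraries. The smooth muscle markers Acta2, Tagln, Cnn1 and Smtn were present in all groups, with Acta2 at a mean of 564 FPKM in PDGF-BB+PTUPB cells, 479 FPKM in PDGF-BB cells and 659 FPKM in Control cells, whereas Des and Myocd stayed under an FPKM mean of 1. Of 6 smooth muscle markers tested, Acta2, Myh11 and Lmod1 were lower in PDGF-BB than in Control cells. Their log2 fold changes were -0.53, -1.04 and -0.40 (edgeR adjusted p = 0.00898, 3.26e-04 and 0.0397). Tagln and Cnn1 lay the other way without being called, at 0.28 and 0.32 (edgeR adjusted p = 0.127 and 0.129). All PDGF-BB libraries of both genes were above all Control libraries. Smtn was not called either. Myh11 was higher in PDGF-BB+PTUPB than in PDGF-BB cells, by 0.54 (edgeR adjusted p = 0.021). Of the macrophage markers, Cd14 was present at 13.0 to 19.6 FPKM and Cd68 at 2.03 to 4.43 FPKM. Ptprc, Tyrobp, C1qa, C1qb and C1qc were at 0 in every library, as were the endothelial markers Cdh5, Tie1, Emcn and Kdr.

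Under PDGF-BB, 24 of the 51 tested members were lower than in Control cells and 4 were higher (edgeR quasi-likelihood test with Benjamini-Hochberg adjustment, adjusted p under 0.05). Over all tested genes, 15.8% were lower and 17.3% higher, or 33.2% in either direction, so the share of lower members (47.1%) was above that background and the share of higher members (7.84%) below it. The median log2 fold change was -0.26 over the 51 members and -0.02 over all tested genes. When PTUPB was given before PDGF-BB, 18 members were higher than under PDGF-BB alone and 1 was lower, where 8.28% of all tested genes were higher and 10.0% lower (18.3% in either direction). The median log2 fold change was 0.17 over the members and 0.01 over all tested genes. Against Control cells, PDGF-BB+PTUPB cells had 0 members called in either direction, where 1.89% of tested genes were higher, 0.313% lower and 2.21% called in all. Each pair of comparisons shares 3 libraries, so their values are set side by side and not correlated. RNA from bulk cultures does not tell fewer cells of a type from less RNA per cell.

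**Figure D1:**
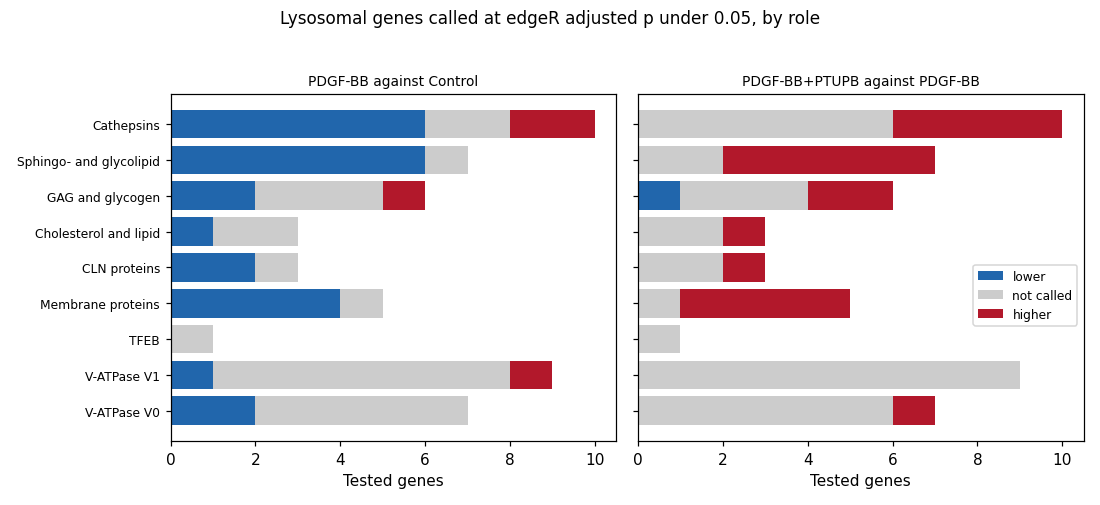
Number of tested lysosomal genes (x axis) called lower, not called or called higher at an edgeR adjusted p under 0.05, for each role (rows), in PDGF-BB against Control (left) and PDGF-BB+PTUPB against PDGF-BB (right). Sphingolipid and glycolipid enzymes had 6 of 7 genes lower under PDGF-BB, whereas the 2 V-ATPase sectors together had 3 of 16.

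With Control replicate 2 and PDGF-BB replicate 3 left out, PDGF-BB cells had 25 members lower and 5 higher than Control cells. PDGF-BB+PTUPB cells then had 25 members higher and 2 lower than PDGF-BB cells. Over all tested genes, that second comparison had 1377 higher and 1441 lower, where all 9 libraries gave 927 and 1121. Calls over all tested genes also rose in both directions in the first comparison. The rise from 18 to 25 is thus not read as particular to the members. The count of 18 moved more with 1 library left out: it was 9 without PDGF-BB+PTUPB replicate 1, 10 without PDGF-BB+PTUPB replicate 2 and 11 without PDGF-BB replicate 2. Over all tested genes, the higher count fell from 927 to 462, 495 and 622 in the same 3 fits. The fall was thus not particular to the members. The count of 4 was 2 without Control replicate 1 or Control replicate 3, where 1568 and 1502 of all tested genes were higher. Control replicate 2 was the highest Control library in 20 of the 24 lower members. This was not counted over all tested genes, so it is not read as particular to the members. Scaling by library totals in place of edgeR's TMM factors moved the split over all tested genes to 2410 higher and 1350 lower in PDGF-BB against Control, where TMM gave 1942 and 1772, and to 759 higher and 1414 lower in PDGF-BB+PTUPB against PDGF-BB, where TMM gave 927 and 1121. The members then had 5 higher and 21 lower in the first comparison and 17 higher and 1 lower in the second.

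Cathepsins are proteases of the lysosomal lumen. PDGF-BB cells had 6 of the 10 tested cathepsins lower than Control cells (Ctsa, Ctsb, Ctsc, Ctsd, Ctsf and Ctsh) and 2 higher (Ctsl and Ctsw). The share of lower cathepsins, 60.0%, was above the 15.8% of all tested genes. That of higher ones, 20.0%, was near the 17.3% of all tested genes. With PTUPB, 4 of the 10 were higher than under PDGF-BB alone (Ctsa, Ctsd, Ctsf and Ctsh) and 0 lower.

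Cathepsin H, a cysteine protease that removes amino-terminal residues, was among the most abundant members. Ctsh had 778, 637 and 626 FPKM in PDGF-BB+PTUPB cells, 449, 391 and 447 FPKM in PDGF-BB cells, and 714, 745 and 775 FPKM in Control cells. Every PDGF-BB library lay below every library of the other 2 groups, which overlapped each other. The log2 fold change was -0.86 ± 0.10 (SE, edgeR adjusted p = 2.03e-04) for PDGF-BB against Control and 0.71 ± 0.10 (adjusted p = 0.00225) for PDGF-BB+PTUPB against PDGF-BB. Set against Control, PDGF-BB+PTUPB gave -0.16 with a 95% interval of -0.39 to 0.07.

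Cathepsin A protects beta-galactosidase and neuraminidase in a complex as well as being a carboxypeptidase. Ctsa had 266, 272 and 266 FPKM in PDGF-BB+PTUPB cells, 196, 178 and 205 FPKM in PDGF-BB cells, and 264, 331 and 287 FPKM in Control cells. The PDGF-BB libraries were again the lowest 3 of the 9. The log2 fold changes were -0.68 ± 0.09 (edgeR adjusted p = 3.82e-04) for PDGF-BB against Control and 0.52 ± 0.09 (adjusted p = 0.0046) for PDGF-BB+PTUPB against PDGF-BB. Ctsa overlaps Pltp and Neurl2 on the other strand and its counts were not whole numbers; the strand used in counting is not given in the sources used here, so reads of these genes may have been divided between them.

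Cathepsin D is the main aspartic protease of the lysosome. Ctsd had 566, 607 and 579 FPKM in PDGF-BB+PTUPB cells, 448, 419 and 492 FPKM in PDGF-BB cells, and 530, 750 and 627 FPKM in Control cells. PDGF-BB values lay under those of both other groups, and Control replicate 2 was the highest library. The log2 fold change was -0.55 ± 0.12 (edgeR adjusted p = 0.0047) for PDGF-BB against Control and 0.41 ± 0.12 (adjusted p = 0.0343) for PDGF-BB+PTUPB against PDGF-BB, a call that was lost in 10 of 19 alternative analyses, with adjusted p up to 0.115. Ctsf, a cysteine protease, had 62.9, 67.2 and 64.1 FPKM in PDGF-BB+PTUPB cells, 48.9, 47.2 and 49.6 FPKM in PDGF-BB cells, and 63.3, 93.9 and 71.8 FPKM in Control cells. Its log2 fold changes were -0.72 ± 0.12 (edgeR adjusted p = 0.00128) and 0.46 ± 0.12 (adjusted p = 0.024) in the same 2 comparisons, and groups did not overlap in either.

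Cathepsin C, which activates serine proteases of granules by trimming them, had 21.3, 20.3 and 14.2 FPKM in PDGF-BB+PTUPB cells, 14.9, 14.5 and 13.1 FPKM in PDGF-BB cells, and 19.1, 38.0 and 24.9 FPKM in Control cells. The Control libraries were all above the PDGF-BB libraries but spread widely among themselves, and PDGF-BB+PTUPB replicate 3 fell within the PDGF-BB range. Ctsc was 1.02 lower on the log2 scale under PDGF-BB than in Control (SE 0.23, edgeR adjusted p = 0.00667), and the value was -0.67 with Control replicate 2 and PDGF-BB replicate 3 left out. Its change with PTUPB, 0.44 ± 0.23, did not pass (adjusted p = 0.219), and PDGF-BB+PTUPB against Control was -0.58 with a 95% interval of -1.07 to -0.09.

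Ctsb and Ctsl, broad cysteine proteases, were the 2 most abundant cathepsins and moved in opposite directions. Ctsb had 925, 942 and 914 FPKM in PDGF-BB+PTUPB cells, 839, 783 and 899 FPKM in PDGF-BB cells, and 904, 1210 and 953 FPKM in Control cells. The lowest Control library was just above the highest PDGF-BB library, and the log2 fold change of -0.35 ± 0.11 (edgeR adjusted p = 0.0303) became -0.23 without Control replicate 2 and missed the threshold there and in 8 other alternatives. Ctsl was higher in PDGF-BB cells, at 682, 716 and 709 FPKM in PDGF-BB+PTUPB cells, 868, 841 and 992 FPKM in PDGF-BB cells, and 591, 813 and 648 FPKM in Control cells. Its log2 fold change of 0.33 ± 0.11 (edgeR adjusted p = 0.0476) was past the threshold in 10 of 19 alternatives. With PTUPB, neither passed: the log2 fold change against PDGF-BB was 0.18 ± 0.11 for Ctsb (adjusted p = 0.27) and -0.31 ± 0.11 for Ctsl (adjusted p = 0.082).

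Cathepsin W, known from cytotoxic lymphocytes, was scarce. Ctsw had 0.80, 1.85 and 1.73 FPKM in PDGF-BB+PTUPB cells, 2.06, 2.34 and 3.81 FPKM in PDGF-BB cells, and 0.64, 0.41 and 0.27 FPKM in Control cells. The 3 groups did not overlap. No Control library reached 1 FPKM, so the gene was tested only because of its level in the treated groups. The fitted log2 fold change was 2.59 ± 0.44 (edgeR adjusted p = 0.00149) for PDGF-BB against Control and 1.36 to 2.95 over the alternatives, the lowest on the log2(FPKM + 1) scale, which compresses low values. Against PDGF-BB, PTUPB gave -0.86 ± 0.38 (adjusted p = 0.146).

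Cathepsin K, the collagen- and elastin-cutting protease of osteoclasts and diseased arteries, had 73.4, 84.1 and 89.0 FPKM in PDGF-BB+PTUPB cells, 84.3, 75.0 and 85.0 FPKM in PDGF-BB cells, and 56.5, 92.3 and 64.1 FPKM in Control cells. The groups overlapped in each comparison. The 95% interval of its log2 fold change was -0.21 to 0.48 for PDGF-BB against Control and -0.29 to 0.40 for PDGF-BB+PTUPB against PDGF-BB. Control replicate 2 was the highest Ctsk library, and without it the first log2 fold change was 0.35, against 0.13 with it, and passed (edgeR adjusted p = 0.0308). With PDGF-BB replicate 3 left out as well it was 0.32 and passed. Ctsz also was not called in either comparison.

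**Figure D2:**
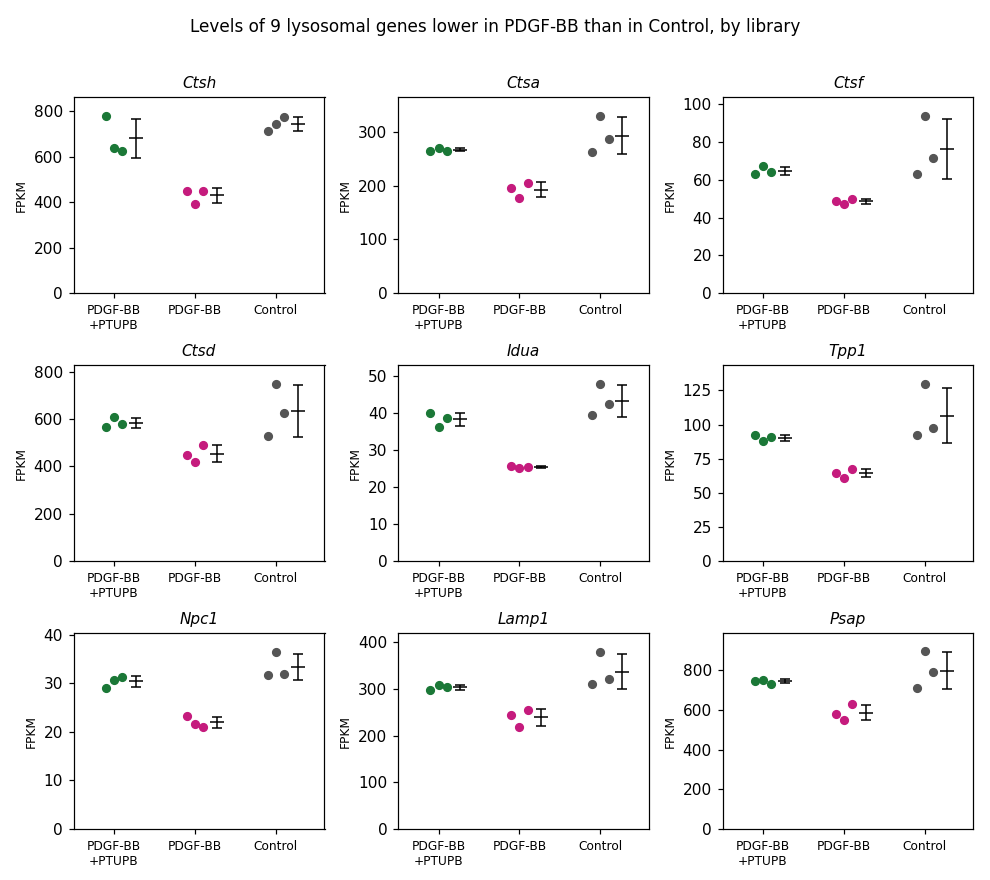
FPKM (y axis, from 0) of 9 lysosomal genes called lower in PDGF-BB cells than in Control cells, in each of the 3 libraries of PDGF-BB+PTUPB (green), PDGF-BB (magenta) and Control (grey), with the mean and SD of each group as black bars. In all 9 panels the 3 PDGF-BB points lie below the points of the other 2 groups; Ctsh has 391 to 449 FPKM there.

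The enzymes of sphingolipid and glycolipid breakdown shifted in 1 direction in each comparison. PDGF-BB cells had 6 of 7 lower than Control cells and PDGF-BB+PTUPB cells had 5 of 7 higher than PDGF-BB cells, with 0 called the other way in each. The median log2 fold change was -0.47 in the first comparison and 0.38 in the second. Gla (alpha-galactosidase A) was not called in either, and Smpd1 (acid sphingomyelinase) was called lower under PDGF-BB only, at -0.27 ± 0.07 (edgeR adjusted p = 0.0151) against 0.17 ± 0.07 with PTUPB (adjusted p = 0.131); whether these genes differ from the rest of the list was not tested.

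Psap, the precursor of the saposins that present lipids to these enzymes, was the most abundant of them. It had 749, 753 and 734 FPKM in PDGF-BB+PTUPB cells, 581, 551 and 629 FPKM in PDGF-BB cells, and 710, 897 and 791 FPKM in Control cells. All PDGF-BB libraries were below all others, with log2 fold changes of -0.51 ± 0.09 (edgeR adjusted p = 0.00236) for PDGF-BB against Control and 0.39 ± 0.09 (adjusted p = 0.0184) for PDGF-BB+PTUPB against PDGF-BB. Hexa, the alpha subunit of the beta-hexosaminidase that is defective in Tay-Sachs disease, had 150, 165 and 158 FPKM in PDGF-BB+PTUPB cells, 121, 111 and 131 FPKM in PDGF-BB cells, and 150, 207 and 174 FPKM in Control cells. The groups were separated in the same way, and the log2 fold changes were -0.61 ± 0.11 (edgeR adjusted p = 0.00212) and 0.42 ± 0.11 (adjusted p = 0.0243). With PTUPB, the call of Hexa was lost in 5 of 19 alternatives (edgeR adjusted p up to 0.0896) and that of Psap in 4 (up to 0.0698), all of them with 1 library left out.

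The other called members of this list were Asah1 (acid ceramidase), Arsa (arylsulfatase A, which removes sulfate from sulfatide) and Glb1 (beta-galactosidase). Their log2 fold changes for PDGF-BB against Control were -0.47 ± 0.08 for Asah1, -0.52 ± 0.09 for Arsa and -0.36 ± 0.07 for Glb1. For PDGF-BB+PTUPB against PDGF-BB they were 0.42 ± 0.08, 0.38 ± 0.09 and 0.33 ± 0.07 in the same order of genes. Summed over the 7 genes, the level was 1278 ± 11.7 FPKM in PDGF-BB+PTUPB cells, 1023 ± 52.2 FPKM in PDGF-BB cells and 1363 ± 133 FPKM in Control cells (SD, n = 3 each). Asah1 overlaps Pcm1 on the other strand, with 8265 counts for Pcm1 against 38634 for Asah1 over the 9 libraries.

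The enzymes of glycosaminoglycan and glycogen breakdown were mixed. Of 6 tested, PDGF-BB cells had 2 lower (Idua and Gaa) and 1 higher (Arsb) than Control cells. The share of higher genes, 16.7%, was near the 17.3% of all tested genes. PDGF-BB+PTUPB cells had Idua and Gaa higher and Arsb lower than PDGF-BB cells. Gusb, Naglu and Ids were not called in either comparison.

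Alpha-L-iduronidase removes iduronic acid from dermatan and heparan sulfate. Idua had 40.0, 36.4 and 38.7 FPKM in PDGF-BB+PTUPB cells, 25.8, 25.1 and 25.4 FPKM in PDGF-BB cells, and 39.6, 48.0 and 42.5 FPKM in Control cells. The PDGF-BB libraries lay within 1 FPKM of each other and far under the rest. The log2 fold change was -0.84 ± 0.08 (edgeR adjusted p = 5.96e-05) for PDGF-BB against Control and 0.64 ± 0.08 (adjusted p = 0.00115) for PDGF-BB+PTUPB against PDGF-BB, and both calls held in all 19 alternatives. Against Control, PDGF-BB+PTUPB cells were at -0.20 with a 95% interval of -0.38 to -0.02 (adjusted p = 0.302). Slc26a1, which overlaps Idua on the other strand, had 219 counts over the 9 libraries against 12109 for Idua.

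Acid alpha-glucosidase, the glycogen enzyme lacking in Pompe disease, was the most abundant of this list. Gaa had 146, 149 and 148 FPKM in PDGF-BB+PTUPB cells, 112, 107 and 125 FPKM in PDGF-BB cells, and 147, 182 and 173 FPKM in Control cells. Again the PDGF-BB libraries were lowest, at a log2 fold change of -0.62 ± 0.09 against Control (edgeR adjusted p = 7.06e-04), and PDGF-BB+PTUPB was 0.41 ± 0.09 above PDGF-BB (adjusted p = 0.0127). Arylsulfatase B cleaves sulfate from dermatan and chondroitin sulfate, and it went the other way. Arsb had 22.0, 22.4 and 25.5 FPKM in PDGF-BB+PTUPB cells, 30.2, 30.9 and 33.7 FPKM in PDGF-BB cells, and 18.2, 25.9 and 20.9 FPKM in Control cells. Its log2 fold change was 0.47 ± 0.12 for PDGF-BB against Control (edgeR adjusted p = 0.0109) and -0.40 ± 0.12 for PDGF-BB+PTUPB against PDGF-BB (adjusted p = 0.0409), the second of which missed the threshold in 7 of 19 alternatives.

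Of the 3 genes that handle cholesterol and neutral lipid, Npc1 changed. NPC1 is the membrane protein that carries cholesterol out of the lysosome. Npc1 had 29.1, 30.8 and 31.3 FPKM in PDGF-BB+PTUPB cells, 23.2, 21.7 and 21.1 FPKM in PDGF-BB cells, and 31.8, 36.5 and 31.9 FPKM in Control cells. The 3 groups did not overlap, with PDGF-BB+PTUPB between the other 2. The log2 fold change was -0.67 ± 0.08 (edgeR adjusted p = 1.44e-04) for PDGF-BB against Control. It was 0.51 ± 0.08 (adjusted p = 0.00232) when PDGF-BB+PTUPB was set against PDGF-BB, and -0.16 ± 0.07 (adjusted p = 0.381) when it was set against Control. Npc1 overlaps Rmc1 on the other strand, which had 5950 counts against 20062 for Npc1.

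NPC2, the soluble carrier that hands cholesterol to NPC1, was more abundant. Npc2 had 342, 380 and 390 FPKM in PDGF-BB+PTUPB cells, 328, 319 and 386 FPKM in PDGF-BB cells, and 347, 481 and 366 FPKM in Control cells. The groups overlapped, and no comparison passed (edgeR adjusted p = 0.113 for PDGF-BB against Control, at a log2 fold change of -0.28 ± 0.12). Without PDGF-BB replicate 3 that value was -0.37 and passed. With Control replicate 2 left out too, it was -0.22 (edgeR adjusted p = 0.0346) and PDGF-BB+PTUPB was 0.24 above PDGF-BB (adjusted p = 0.0248). Lipa (lysosomal acid lipase, which hydrolyses cholesteryl esters) had a 95% interval of -0.23 to 0.16 for PDGF-BB against Control and -0.31 to 0.08 for PDGF-BB+PTUPB against PDGF-BB.

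The 3 neuronal ceroid lipofuscinosis proteins, named for the storage disease that follows their loss, included 2 called lower under PDGF-BB. Tpp1, a tripeptidyl peptidase, had 92.6, 87.7 and 90.6 FPKM in PDGF-BB+PTUPB cells, 64.8, 61.1 and 67.4 FPKM in PDGF-BB cells, and 92.5, 129 and 97.4 FPKM in Control cells. Its log2 fold changes were -0.79 ± 0.11 (edgeR adjusted p = 5.11e-04) for PDGF-BB against Control and 0.53 ± 0.11 (adjusted p = 0.00988) for PDGF-BB+PTUPB against PDGF-BB. Ppt1, a thioesterase that strips fatty acids from proteins, had 90.6, 95.7 and 93.6 FPKM in PDGF-BB+PTUPB cells, 77.5, 71.4 and 83.7 FPKM in PDGF-BB cells, and 87.8, 116 and 96.3 FPKM in Control cells. Both genes were lowest in the PDGF-BB libraries, and Ppt1 passed against Control (-0.44 ± 0.10, edgeR adjusted p = 0.00826) but not with PTUPB (0.31 ± 0.10, adjusted p = 0.0591), where 6 of 19 alternatives passed. Cln3 was not called in either comparison.

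Of the 5 membrane proteins, 4 were lower under PDGF-BB than in Control and 4 higher with PTUPB than under PDGF-BB alone: Lamp1, Lamp2, Mcoln1 and Scarb2. LAMP1 and LAMP2 are the heavily glycosylated proteins that coat the inner face of the lysosomal membrane. Lamp1 had 298, 309 and 305 FPKM in PDGF-BB+PTUPB cells, 244, 219 and 255 FPKM in PDGF-BB cells, and 311, 380 and 321 FPKM in Control cells. The 3 groups did not overlap. The log2 fold changes of Lamp1 were -0.56 ± 0.09 (edgeR adjusted p = 0.00132) for PDGF-BB against Control, and 0.39 ± 0.09 (adjusted p = 0.0178) when PDGF-BB+PTUPB was set against PDGF-BB. Set against Control, PDGF-BB+PTUPB gave -0.18 ± 0.09 (adjusted p = 0.448).

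Lamp2, Mcoln1 (the calcium channel TRPML1) and Scarb2 (the lysosomal membrane protein LIMP-2) had log2 fold changes of -0.56 ± 0.10, -0.44 ± 0.08 and -0.42 ± 0.08 for PDGF-BB against Control, and 0.41 ± 0.10, 0.42 ± 0.08 and 0.35 ± 0.08 for PDGF-BB+PTUPB against PDGF-BB. Cd63, a tetraspanin of late endosomes that also marks exosomes, was the exception. It had 811, 852 and 847 FPKM in PDGF-BB+PTUPB cells, 900, 893 and 1115 FPKM in PDGF-BB cells, and 712, 969 and 811 FPKM in Control cells. PDGF-BB and Control libraries overlapped, and the 95% interval of the log2 fold change was -0.11 to 0.42. PDGF-BB+PTUPB libraries were all below the PDGF-BB libraries, at -0.17 ± 0.12 (edgeR adjusted p = 0.364).

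**Figure D3:**
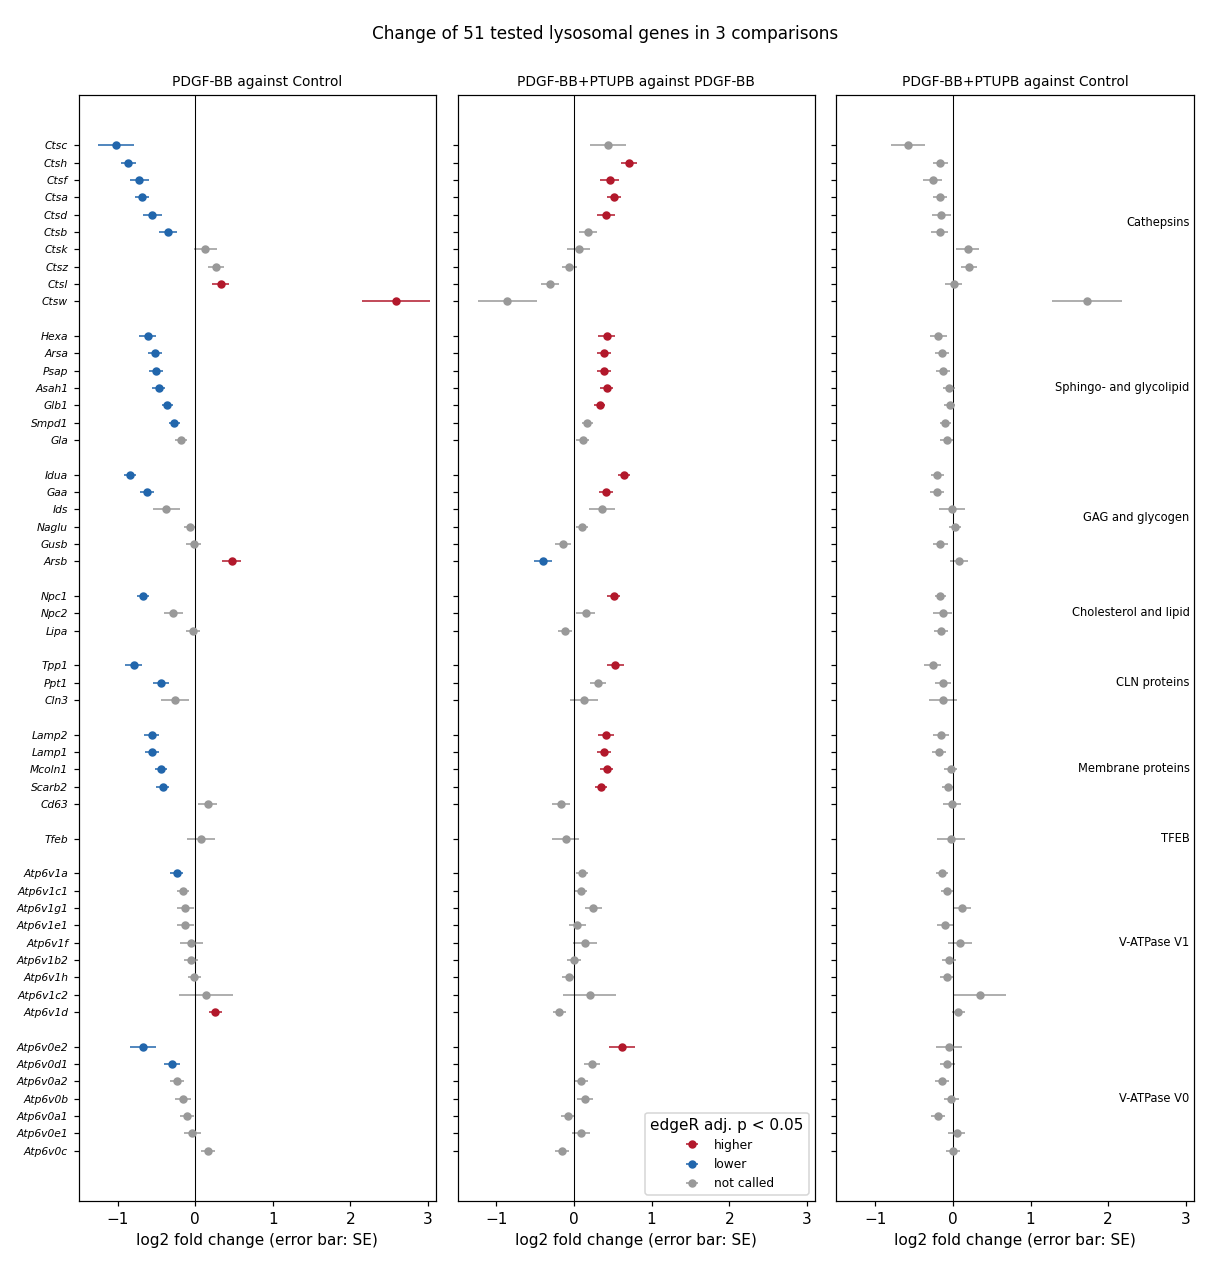
Log2 fold change (x axis, points) with its SE (bars) of the 51 tested lysosomal genes (rows, grouped by role) in 3 panels: PDGF-BB against Control, then PDGF-BB+PTUPB against each of these, coloured by the edgeR call. The enzymes and membrane proteins lie mostly left of 0 in the first panel and right of 0 in the second, where their medians are -0.42 and 0.35, and no gene is called in the third.

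Fewer V-ATPase genes were called, and the difference from the other members was not tested. Of 16 tested subunit genes, PDGF-BB cells had 3 lower (Atp6v0d1, Atp6v0e2 and Atp6v1a) and 1 higher (Atp6v1d) than Control cells, shares of 18.8% and 6.25%. The share of lower genes was near the 15.8% of all tested genes, so the V-ATPase count of lower genes does not stand out. Among the other 35 tested members 21 were lower and 3 higher. The median log2 fold change was -0.12 over the V-ATPase genes and -0.42 over the others. PDGF-BB+PTUPB cells had 1 V-ATPase gene higher than PDGF-BB cells (Atp6v0e2) and 0 lower, with a median of 0.09, against 17 higher, 1 lower and a median of 0.35 over the others. That 1 of 16 (6.25%) was near the 8.28% of all tested genes. Summed over the 23 genes that the symbols match, the V-ATPase level was 1275 ± 2.94 FPKM in PDGF-BB+PTUPB cells, 1271 ± 103 FPKM in PDGF-BB cells and 1246 ± 129 FPKM in Control cells (SD, n = 3 each), so group means lay within the spread of the PDGF-BB and Control libraries. The other members summed to 7155 ± 59.9, 6382 ± 442 and 7606 ± 964 FPKM in PDGF-BB+PTUPB, PDGF-BB and Control cells.

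In the V1 sector, Atp6v1a, the catalytic subunit, was 0.24 lower on the log2 scale under PDGF-BB (SE 0.08, edgeR adjusted p = 0.0445), a call lost in 13 of 19 alternatives. Atp6v1d, a subunit of the central rotor, had a log2 fold change of 0.26 ± 0.08 (edgeR adjusted p = 0.0228), with 108, 109 and 111 FPKM in PDGF-BB+PTUPB cells, 131, 119 and 137 FPKM in PDGF-BB cells, and 96.4, 108 and 103 FPKM in Control cells. Atp6v1g1, a subunit of the peripheral stalk and the most abundant V1 gene, had 236, 257 and 253 FPKM in PDGF-BB+PTUPB cells, 218, 193 and 234 FPKM in PDGF-BB cells, and 194, 262 and 219 FPKM in Control cells. PDGF-BB and Control libraries of Atp6v1g1 overlapped, with a 95% interval of the log2 fold change from -0.38 to 0.11. With PTUPB it was 0.25 ± 0.11 above PDGF-BB (edgeR adjusted p = 0.139). The remaining V1 genes tested (Atp6v1b2, Atp6v1c1, Atp6v1c2, Atp6v1e1, Atp6v1f and Atp6v1h) were not called in any of the 3 comparisons; no Control library of Atp6v1c2 reached 1 FPKM.

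In the V0 sector, Atp6v0c, which encodes the proteolipid of the proton-carrying ring, was most abundant. It had 257, 239 and 239 FPKM in PDGF-BB+PTUPB cells, 272, 256 and 313 FPKM in PDGF-BB cells, and 244, 245 and 230 FPKM in Control cells. PDGF-BB libraries were all above Control libraries, though the log2 fold change of 0.16 ± 0.09 did not pass (edgeR adjusted p = 0.197). Atp6v0e2, one of 2 genes for the small e subunit, had 13.3, 10.3 and 12.1 FPKM in PDGF-BB+PTUPB cells, 8.57, 8.06 and 7.32 FPKM in PDGF-BB cells, and 11.4, 15.0 and 9.91 FPKM in Control cells. PDGF-BB libraries were the lowest, at -0.67 ± 0.17 against Control (edgeR adjusted p = 0.0137), and PDGF-BB+PTUPB was 0.62 ± 0.17 above PDGF-BB (adjusted p = 0.0332). The second call was lost in 6 of 19 alternatives, with edgeR adjusted p up to 0.126. With Control replicate 2 and PDGF-BB replicate 3 left out, the first value was -0.44 and did not pass (adjusted p = 0.0756). Its paralog Atp6v0e1, at 41.8 to 53.4 FPKM in all 9 libraries, had a log2 fold change of -0.04 ± 0.11 for PDGF-BB against Control. Atp6v0d1 was 0.30 lower (SE 0.10, edgeR adjusted p = 0.0387), but PDGF-BB replicate 3 lay above 2 Control libraries and 12 of 19 alternatives lost the call.

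**Figure D4:**
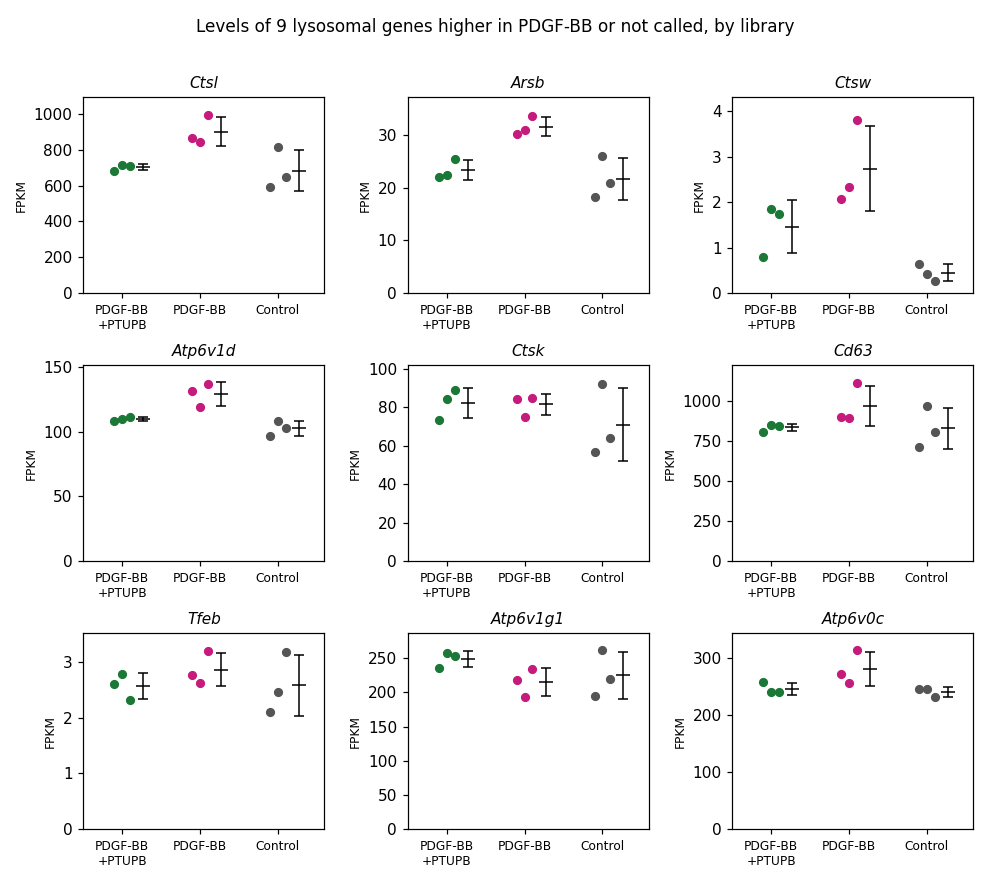
FPKM (y axis, from 0) of 9 lysosomal genes that were called higher in PDGF-BB cells than in Control cells (Ctsl, Arsb, Ctsw and Atp6v1d) or not called, in each of the 3 libraries of PDGF-BB+PTUPB (green), PDGF-BB (magenta) and Control (grey), with the mean and SD of each group as black bars. The 3 PDGF-BB points lie above the Control points in the 4 called genes and in Atp6v0c, and groups overlap for Ctsk, Cd63, Tfeb and Atp6v1g1 between PDGF-BB and Control.

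The transcription factor gene Tfeb was expressed at a low level that did not differ detectably. It had 2.61, 2.79 and 2.32 FPKM in PDGF-BB+PTUPB cells, 2.77, 2.62 and 3.20 FPKM in PDGF-BB cells, and 2.11, 2.46 and 3.18 FPKM in Control cells. The groups overlapped in every comparison, and the 95% interval of the log2 fold change was -0.33 to 0.48 for PDGF-BB against Control and -0.52 to 0.30 for PDGF-BB+PTUPB against PDGF-BB. Transcript level says nothing of TFEB's phosphorylation or location, which were not measured.

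In PDGF-BB+PTUPB against Control, 6 members had an unadjusted p under 0.05, where 13.7% of all tested genes did. Ctsw was above 0, at 1.73 ± 0.45 (edgeR adjusted p = 0.0974), and Ctsc, Ctsf, Idua, Gaa and Tpp1 were below 0. None of these passed the edgeR adjustment in the main fit. Ctsw passed in 2 of 19 alternatives, 1 of them DESeq2, and limma called 0 members. The median log2 fold change over the 51 members was -0.08, with 39 of them below 0. Over all 11197 tested genes the median was -0.01, with 5828 below 0. The widest of the 51 intervals reached 1.00 to either side of its estimate on the log2 scale, that of Ctsw. The intervals of Ctsh (-0.39 to 0.07), Ctsd (-0.40 to 0.11) and Lamp1 (-0.38 to 0.03) all include small decreases as well as 0.

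The 14 members that were not tested included 8 with 0 counts in every library: Ctse, Ctsg, Ctsj, Ctsm, Ctsq, Ctsr, Atp6v0d2 and Atp6v1g3. Several of these are known from other tissues, such as Ctsg from neutrophils, Atp6v0d2 from osteoclasts and Atp6v1g3 from kidney. The other 6 (Ctss, Atp6v0a4, Atp6v1b1, Atp6v1e2, Atp6v1fnb and Atp6v1g2) had counts but reached at most 0.87 FPKM. Ctss, the cathepsin of antigen-presenting cells, had 6 counts over all 9 libraries. Atp6v1fnb is matched by the symbol rule as a neighbour of Atp6v1f and is not itself named as a pump subunit.

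Promoter sequence was a feature the choice of genes did not use. RefSeq promoters of rat build GRCr8, from 250 bases before to 50 bases after the annotated start, were found for 50 of the 65 members and 39 of the 51 tested ones. The E-box bound by TFEB and its relatives was searched as CACGTG, which reads the same on both strands, and as the stricter TCACGTG on either strand, which is contained in the first. CACGTG was present in 11 of the 39 promoters of tested members (28.2%), in 9.48% of the 9321 promoters of tested genes and in 6.42% of all 33469 promoters in the table. TCACGTG was present in 9 of 39 (23.1%), 5.62% and 3.2% in the same sets. A match describes letters in a window and not binding.

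The promoters of Lamp1, Ctsd and Ctsh are shown because these abundant genes moved alike while their windows held 5, 2 and 0 E-boxes. Each run gives the 250 bases before the start, 5′ to 3′ on the gene's strand. Capitals mark CACGTG together with a T before it or an A after it.

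Lamp1 (GRCr8 chr16:83075064-83075313, minus strand): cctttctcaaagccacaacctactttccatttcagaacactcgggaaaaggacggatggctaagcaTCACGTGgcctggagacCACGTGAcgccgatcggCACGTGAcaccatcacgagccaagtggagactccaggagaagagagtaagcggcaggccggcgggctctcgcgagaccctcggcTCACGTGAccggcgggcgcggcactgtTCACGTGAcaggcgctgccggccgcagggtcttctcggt

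Ctsd (GRCr8 chr1:206968822-206969071, minus strand): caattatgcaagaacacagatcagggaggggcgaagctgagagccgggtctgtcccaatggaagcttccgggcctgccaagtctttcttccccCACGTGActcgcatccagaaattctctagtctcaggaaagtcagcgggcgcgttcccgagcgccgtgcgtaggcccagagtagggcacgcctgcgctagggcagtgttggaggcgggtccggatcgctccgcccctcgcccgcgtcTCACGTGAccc

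Ctsh (GRCr8 chr8:99488506-99488755, plus strand): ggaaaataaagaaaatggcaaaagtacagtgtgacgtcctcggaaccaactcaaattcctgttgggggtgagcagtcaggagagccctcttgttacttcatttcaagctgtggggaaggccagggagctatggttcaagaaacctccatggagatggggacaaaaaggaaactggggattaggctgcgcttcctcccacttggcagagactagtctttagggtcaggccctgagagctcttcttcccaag

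The 5 sites of Lamp1 began at -183, -167, -150, -65 and -38 and the 2 of Ctsd at -157 and -10, counted in bases from the annotated start. The other 9 promoters with an E-box were those of Atp6v0d1, Atp6v0e1, Cd63, Cln3, Ctsf, Gaa, Glb1, Idua and Mcoln1. Among the 11 members with CACGTG, 8 were lower under PDGF-BB than in Control, 0 were higher and the median log2 fold change was -0.44. Among the 28 without it, 9 were lower, 2 were higher and the median was -0.15. With PTUPB against PDGF-BB, 7 of the 11 and 6 of the 28 were higher, with medians of 0.39 and 0.12. Genes without an E-box in the window included Ctsc, Ctsh, Tpp1, Ctsa and Npc1, which had the largest falls among the 28, and E-box genes included Cd63 and Atp6v0e1, which were not called. Most V-ATPase genes with a promoter had no E-box, so the genes with and without it also differed in role. Outside the V-ATPase, Ctsd, Ctsf, Gaa, Glb1, Idua, Lamp1 and Mcoln1 had an E-box and were lower under PDGF-BB. Cd63 and Cln3 had one and were not called. Ctsa, Ctsc, Ctsh, Lamp2, Npc1, Scarb2, Smpd1 and Tpp1 were lower without one. Ctsk, Ctsz, Gla, Gusb, Ids, Lipa, Naglu, Npc2 and Tfeb lacked one and were not called, and Ctsl lacked one and was higher. The difference was not tested. Members without a promoter included Ctsb, Psap, Asah1, Hexa, Arsa, Ppt1 and Atp6v0e2, which were lower under PDGF-BB, and Arsb and Ctsw, which were higher.

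**Figure D5:**
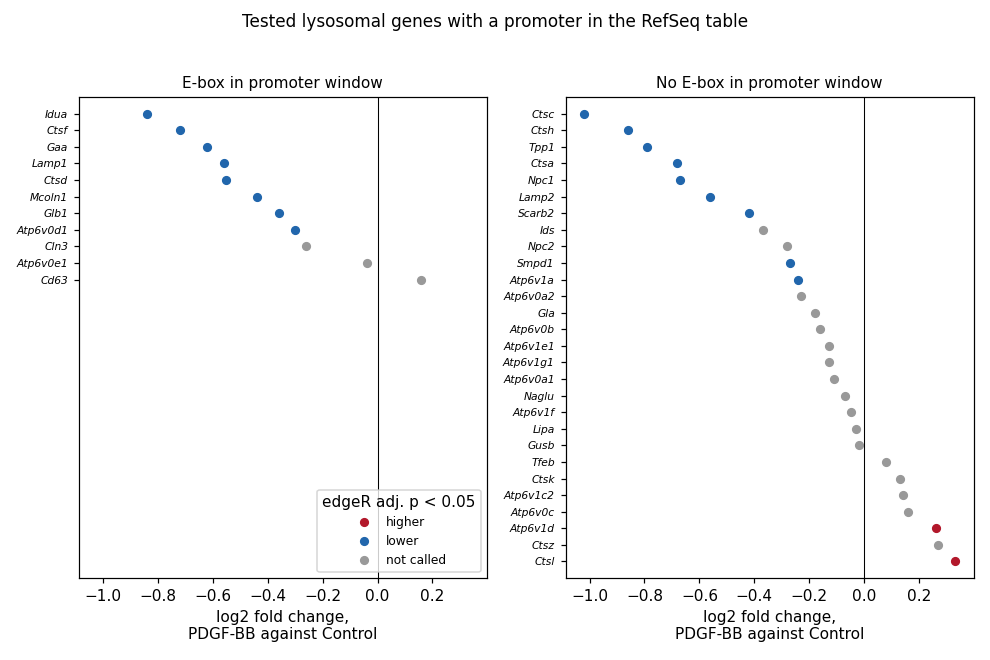
Log2 fold change (x axis) in PDGF-BB against Control of the 39 tested lysosomal genes with a RefSeq promoter, in 2 panels by whether the 300-base window holds CACGTG, coloured by the edgeR call. Of the 11 genes with the motif 8 are lower, and of the 28 without it 9 are lower and 2 higher.

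Related gene lists, named with results on these data known, were described in the same fit, to be read against 15.8% of all tested genes lower under PDGF-BB and 8.28% higher with PTUPB. Of 21 genes tested from a list of other lysosomal hydrolases and activators, PDGF-BB cells had 11 lower and 1 higher than Control cells. PDGF-BB+PTUPB cells had 9 higher and 0 lower than PDGF-BB cells. Sgpl1, on this list, encodes a lyase of the endoplasmic reticulum and is counted in both the 11 and the 9. Neu1 (neuraminidase 1) had log2 fold changes of -0.81 ± 0.11 (edgeR adjusted p = 3.99e-04) and 0.43 ± 0.11 (adjusted p = 0.0221). Acp5, the tartrate-resistant acid phosphatase, was the one that rose, by 0.60. Next were 21 other membrane proteins and transporters, among them Cln6 and Cln8 of the endoplasmic reticulum, which were not called. Of the 21, 10 were lower and 0 higher under PDGF-BB, and 8 were higher and 0 lower with PTUPB. They included Ostm1 and Clcn7, which together form the lysosomal chloride-proton exchanger: Ostm1 had -1.04 ± 0.09 and 0.64 ± 0.09, and Clcn7 had -0.65 ± 0.08 and 0.49 ± 0.08, for PDGF-BB against Control and PDGF-BB+PTUPB against PDGF-BB. Ostm1 was still lower in PDGF-BB+PTUPB than in Control cells, at -0.40 ± 0.09 (edgeR adjusted p = 0.0439).

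Of 10 genes listed as accessory and assembly genes of the V-ATPase, 2 were lower under PDGF-BB (Wdr7 at -0.75 and Atp6ap2 at -0.29). With PTUPB, 1 was higher (Wdr7, at 0.36). These shares, 20.0% and 10.0%, were near the 15.8% and 8.28% of all tested genes. Tcirg1, on this list, encodes a V0 subunit that the symbol rule does not match, so the V-ATPase counts and sums above leave it out. It was not called (0.18 under PDGF-BB). Wdr7 too was lower in PDGF-BB+PTUPB than in Control cells, at -0.40 ± 0.08 (edgeR adjusted p = 0.0366). Of 18 genes that sort enzymes to the lysosome, 7 were lower and 1 higher under PDGF-BB, with Sumf1, the activator of sulfatases, at -0.68 ± 0.08, and 3 were higher and 1 lower with PTUPB. The TFEB relatives and their nutrient-sensing regulators had 3 of 19 lower (Flcn, Fnip2 and Rragc) and 2 higher (Tfec and Ywhaz) under PDGF-BB, with a median of -0.02, and 2 higher and 1 lower with PTUPB. Its shares, 15.8% lower under PDGF-BB and 10.5% higher with PTUPB, were near those of all tested genes. Of 30 autophagy genes, 15 were lower and 0 higher under PDGF-BB, and 8 were higher and 0 lower with PTUPB. The autophagy-initiating kinase gene Ulk2 had -1.03 ± 0.14 (edgeR adjusted p = 4.95e-04) and 0.77 ± 0.14 (adjusted p = 0.00604).

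Markers of other cells were read beside these changes. Of 7 adventitial fibroblast markers in the table, 6 were tested; 5 were lower in PDGF-BB than in Control cells and 4 higher in PDGF-BB+PTUPB than in PDGF-BB cells, among them Scara5 at -1.44 and 1.11. Their summed level was 578 to 700 FPKM in PDGF-BB+PTUPB cells, 346 to 392 FPKM in PDGF-BB cells and 704 to 805 FPKM in Control cells. Their part in the lysosomal changes was not tested. Of 15 macrophage markers, 5 were at 0 in every library and 3 were tested; 1 of the 3 was lower under PDGF-BB and 2 were higher with PTUPB. Lyz2, a lysozyme gene, had -1.81 and 1.62 in the same 2 comparisons at a mean of 0.607 FPKM in PDGF-BB cells. Cd14, which makes up most of the list's sum, had -0.36 (edgeR adjusted p = 0.0535) and 0.47 (adjusted p = 0.0304). Cd68, also tested, lay the other way without being called, at 0.11 (edgeR adjusted p = 0.782) and -0.14 (adjusted p = 0.772). The macrophage sum was 23.2 to 24.1 FPKM in PDGF-BB+PTUPB cells, 17.4 to 19.1 FPKM in PDGF-BB cells and 17.5 to 26.4 FPKM in Control cells, and the part of these markers was likewise not tested. Of 8 osteoclast markers, 4 were at 0 everywhere and 2 were tested. Of these, Ctsk was not called, and Acp5 was higher under PDGF-BB (0.60, edgeR adjusted p = 0.0125) and not called with PTUPB (-0.07). The osteoclast sum, mostly Ctsk, was 81.2 to 95.4 FPKM in PDGF-BB+PTUPB cells, 82.3 to 93.2 FPKM in PDGF-BB cells and 61.7 to 99.2 FPKM in Control cells. The sum of the 7 endothelial markers was 0.20 to 0.78 FPKM over all libraries.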

How the data were processed

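The 9 RNA-seq libraries were grouped by the sample labels. The submitters' processing notes name cutadapt 1.9.1 for trimming, HISAT2 2.0.1 for alignment and HTSeq 0.6.1 for counting. The authors' deposited table holds an estimated count and an FPKM for each gene in each library. In 978 of 32623 genes some count is not whole, which was not explained, so counts were rounded for testing. The notes name the mouse build mm10 although the identifiers are rat, and no coordinate of the table is given; promoters come from RefSeq (GRCr8).

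The 11197 genes that reached 1 FPKM in 3 or more libraries were fitted together with edgeR 4.0.16 in R 4.3.3 (quasi-likelihood F test, TMM factors, no covariate beside group, 6 residual degrees of freedom, biological coefficient of variation 0.137). Tests were two-sided. Calls were made at a Benjamini-Hochberg adjusted p under 0.05 over all tested genes. Values quoted as levels are the authors' FPKM, scaled to library totals without TMM. The fit was also run on simulated counts in which far fewer genes changed than were called here. That run is not used as support for the calls. DESeq2 1.42.0, limma 3.58.1 on log2(FPKM + 1) and on log2(FPKM + 0.1), other scalings and filters, a replicate block and left-out libraries were the alternatives.

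Any member could be named. Every library's value was given for up to 8 called members with the largest change per comparison, the most abundant member of each role, and Tfeb, Lamp1, Ctsk, Ctsd, Npc1 and Cd63. Ctsl, Arsb and Atp6v1d were added after their values were seen. For the other lists, up to 3 called genes by p were to be named, and further ones were chosen after their values were seen. The members and lists were chosen with earlier results of these data known. Deviations of libraries with the same replicate number correlated at -0.238 to 0.177, so the numbers were not taken to pair libraries.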

Additional observations from a re-analysis of the deposited data

How the results depend on the processing

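Of the 28 members called in PDGF-BB against Control, 21 were called in all 19 alternatives, and of the 19 called in PDGF-BB+PTUPB against PDGF-BB, 8 were (Ctsh, Ctsa, Idua, Asah1, Npc1, Tpp1, Mcoln1 and Scarb2). Of the other 11, the call was lost in 10 alternatives for Ctsd, 7 for Arsb, 6 for Atp6v0e2, 5 each for Ctsf and Hexa, 4 each for Psap, Arsa and Lamp1, 2 for Lamp2 and 1 each for Gaa and Glb1. No called member changed sign. With both Control replicate 2 and PDGF-BB replicate 3 left out, Ctsb (0.24) and Atp6v1g1 (0.32) were also called in that comparison. For PDGF-BB against Control, leaving out 1 library gave 2 to 5 higher and 21 to 25 lower members. For PDGF-BB+PTUPB against PDGF-BB it gave 9 to 19 higher and 0 to 2 lower, and for PDGF-BB+PTUPB against Control 0 to 1 higher. Over all tested genes, the higher count for PDGF-BB+PTUPB against PDGF-BB was 462 to 1150 in those fits. The lower count of members in PDGF-BB+PTUPB against PDGF-BB was 2 with DESeq2, with only the 2 groups compared, and when Control replicate 2 and PDGF-BB replicate 3 were both left out. The higher count of members in PDGF-BB+PTUPB against Control was 1 with DESeq2 (Ctsw) and without those 2 libraries (Ctsk). Ctsw passed there in 2 of 19 alternatives, DESeq2 among them. The cause of these shifts was not tested. As the replicate numbers do not pair the libraries, the fit with the replicate number as a block serves as a check only: it called 3 higher and 21 lower members for PDGF-BB against Control, 16 higher and 1 lower for PDGF-BB+PTUPB against PDGF-BB, and 0 and 0 for PDGF-BB+PTUPB against Control.

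Log2 fold changes near 0 that were not called changed sign. With 1 library left out, those for PDGF-BB+PTUPB against Control ranged from -0.10 to 0.10 for Cd63, -0.15 to 0.15 for Tfeb, -0.17 to 0.12 for Atp6v0e2, -0.21 to 0.02 for Npc2 and -0.03 to 0.03 for Atp6v0c. Tfeb ranged from -0.04 to 0.26 for PDGF-BB against Control, and Ctsk from -0.02 to 0.13 for PDGF-BB+PTUPB against PDGF-BB. In PDGF-BB+PTUPB against Control, Cd63 was 0.01 with library totals and 0.02 with limma at both offsets, and Tfeb was 0.01 and 0.00 with limma. With both Control replicate 2 and PDGF-BB replicate 3 left out, Cd63 was 0.10, Atp6v0e2 0.12 and Npc2 0.02 in that comparison, and Tfeb was -0.06 in PDGF-BB against Control. Depth limits scarce genes: the interval of Ctsw in PDGF-BB+PTUPB against Control reached 1.00 to either side on the log2 scale.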
